A study of Mus musculus with 21 samples.

Results

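The long non-coding RNA linc-Myh (2310065F04Rik) and 7 genes of the Six-Eya network, Six2, Six4, Six5, Eya1, Eya2, Eya3 and Eya4, were read in single skeletal muscle fibers. The members are all probes whose gene name in the array files is one of these 8 names, which gave 8 of 35527 gene names and 9 of the 55681 probes of the array, 2 of them for Six2 and 1 for every other gene. The names were selected on their signal in type 1 against type 2B myofibers, so that this contrast is described for them and not tested. All 9 probes passed the filter on low signal, for which the scanner software had to call a spot positive and significant in 50% or more of the arrays of either type. The study isolated 21 myofibers from 9 untreated CD1 mice aged 3 months, 11 from soleus (type 1) and 10 from extensor digitorum longus, EDL (type 2B). Of the mice, 3 contributed both types, and 6 are represented in either type. The mice are male in the labels and female in the methods of the study. A piece of each myofiber was used to assign its type from the myosin heavy chain protein (MyHC), and RNA from the rest was amplified, labeled and hybridized to an array of its own. Type 1 came only from soleus and type 2B only from EDL, so that type and muscle cannot be told apart. Here and below, signal is the background-subtracted intensity of a probe after quantile normalization between the 21 arrays, as log2, and a difference is type 2B minus type 1 on that scale.

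Six-family proteins are homeodomain transcription factors that bind the MEF3 element in muscle genes, and Eya proteins, which have no DNA-binding domain of their own, join them as coactivators. Dach proteins bind the same complexes as corepressors. In adult muscle this network is known for switching on the genes of fast, glycolytic fibers. linc-Myh is transcribed from within the cluster of fast myosin heavy chain genes, and has been described as a transcript that Six-family proteins switch on together with the fast myosins and that holds down slow-muscle genes. Type 2B fibers are the fastest of the mouse and use the myosin encoded by Myh4, whereas type 1 fibers are slow and use that of Myh7.

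The probe of linc-Myh (A_55_P2337033) lies on the minus strand of chromosome 11 at 66925963 to 66926022 on mm9, the build of the array files. Its 60 bases are shown because every linc-Myh value below rests on them.
linc-Myh probe: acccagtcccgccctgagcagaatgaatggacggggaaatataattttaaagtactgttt
In RefSeq on GRCm38.p6 the gene is a lncRNA of 7620 bases on chromosome 11 (67112461 to 67120080), 10.2 kb after the end of Myh3 and 50.9 kb before the start of Myh2. The kit used for labeling takes up double-stranded DNA, so that the signal does not tell the strands apart. The window around the transcription start (chr11:67120031-67120330, GRCm38.p6, minus strand, RefSeq) is shown with the 250 bases before the start in lower case and the first 50 bases of the transcript in capitals, because the letters bound by Six-family proteins were searched for in it.
linc-Myh promoter: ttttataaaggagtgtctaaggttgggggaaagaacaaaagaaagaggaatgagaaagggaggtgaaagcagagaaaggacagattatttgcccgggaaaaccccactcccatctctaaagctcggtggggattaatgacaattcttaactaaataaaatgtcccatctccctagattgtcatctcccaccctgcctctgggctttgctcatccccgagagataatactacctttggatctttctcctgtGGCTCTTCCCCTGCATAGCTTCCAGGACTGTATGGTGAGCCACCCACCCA
Windows of this length were given for 6 of the 8 members, 8 windows in all, and for the 6 myosin genes of the cluster. The MEF3 core TCAGGTT was searched on both strands and occurred in 1 of the 8 windows of the members, in 0 of the 6 of the myosin genes and in 4.07% of all 32851 windows. The match lay 97 bases before one of the start sites of Six4, in the minus strand of chr12:73113324-73113353 (GRCm38.p6), and the core, read from the other strand, is in capitals.
Six4 window: ggcctgggggaAACCTGAtcggccagatcc
The E-box CANNTG, the element of the MyoD family and its own reverse complement, occurred in 3 of 8 windows of the members, those of Eya3 and both overlapping windows of Eya4, in 4 of 6 of the myosin genes and in 72.3% of all windows. Neither set of letters occurred in the linc-Myh window.

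linc-Myh was higher in type 2B myofibers in all of them. In type 1 its signal had a lowest value of 5.84, a median of 6.77 and a highest value of 7.82, and in type 2B these were 9.31, 9.86 and 11.13. The types did not overlap, the lowest type 2B myofiber lying above the highest type 1 myofiber, and the probe was well above background on all 21 arrays. Mouse means averaged 6.80 ± 0.53 for type 1 and 10.097 ± 0.687 for type 2B (SD, n = 6 for either), and the difference was 3.19 (standard error 0.30), or 9.10-fold. Among the 46922 probes that passed the same filter, a gap of this direction, with no type 2B myofiber as low as any of type 1, was found at 0.629% and the opposite one at 0.71%. By limma, 0.633% of these probes were called higher and 0.84% lower in type 2B with Bonferroni adjustment, and 3.52% and 4.12% with Benjamini-Hochberg adjustment. Each of the 3 mice that gave both types had a higher linc-Myh signal in its type 2B myofibers, by 3.16 in mouse 3 (3 type 1 and 4 type 2B myofibers), 3.87 in mouse 4 (2 and 1) and 5.29 in mouse 9 (1 and 1). Within the 3 slides that held both types the difference was 3.94, 2.80 and 2.85. Background correction by normexp gave 2.52.

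**Figure D1:**
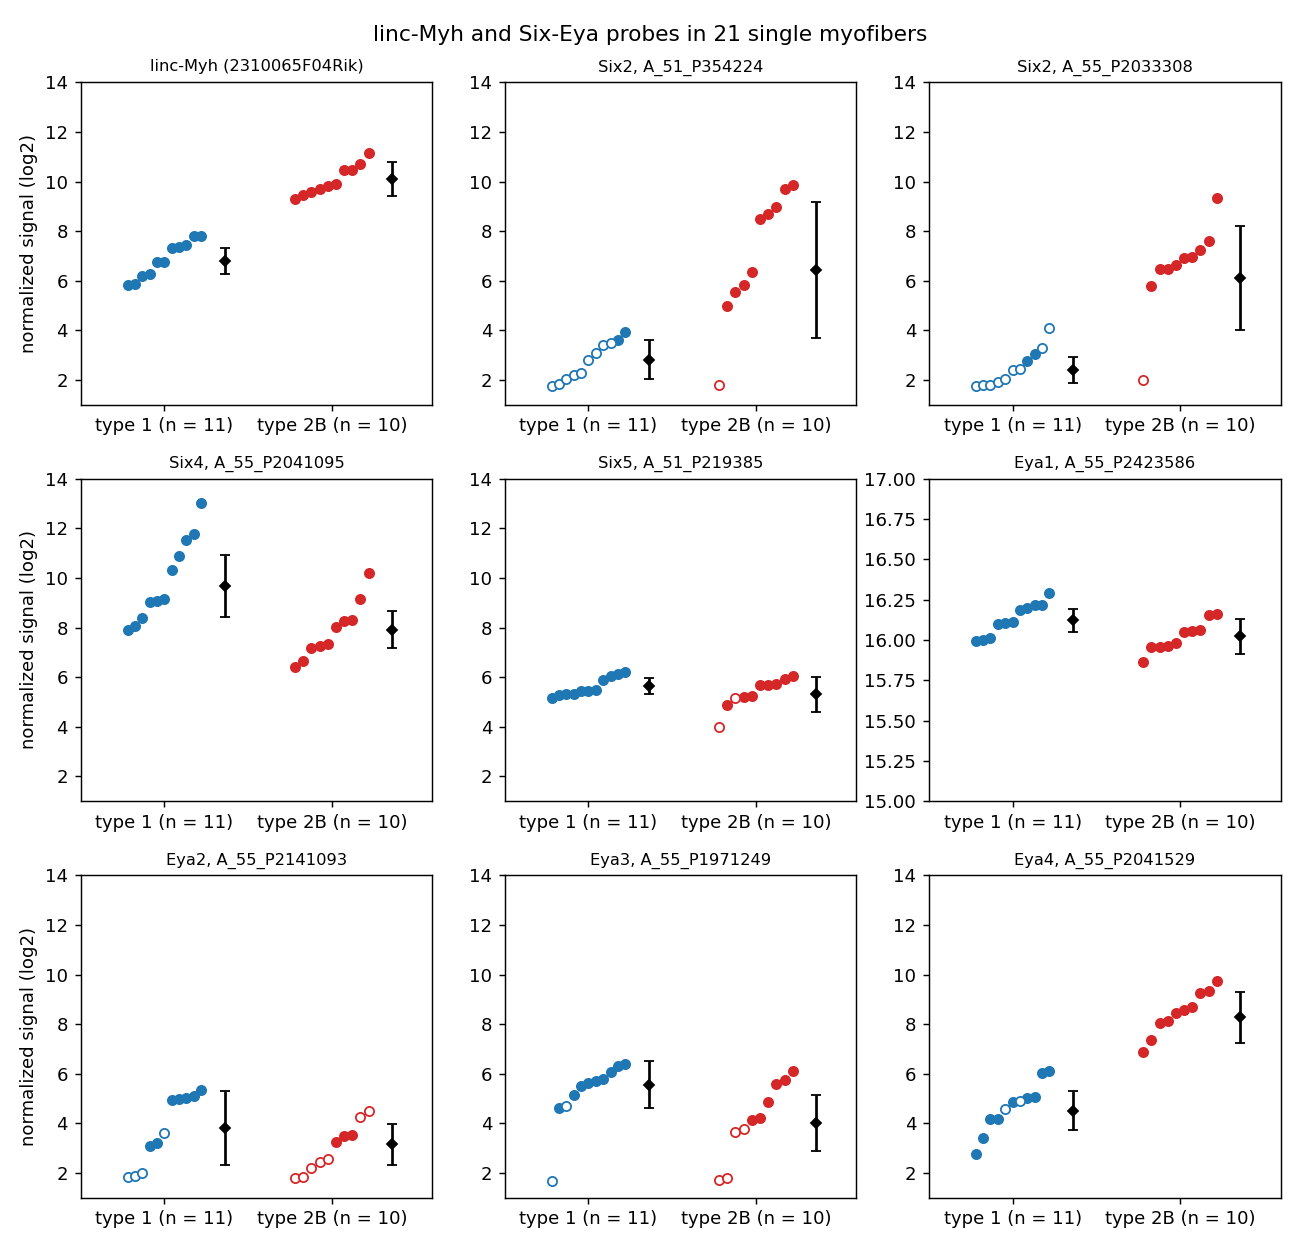
Normalized signal (log2, vertical axis) of each member probe in the 11 type 1 (blue) and 10 type 2B (red) myofibers, sorted within each type. Filled points are well above background and open points are not. Diamonds are the mean of 6 mouse means and bars their SD. The axis of Eya1 runs from 15 to 17 and that of the other probes from 1 to 14. linc-Myh and Eya4 are the probes at which the types do not overlap, and at both Six2 probes 1 type 2B myofiber lies among the type 1 myofibers.

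Within type 1, linc-Myh differed between the slides. The 4 type 1 myofibers on slide 1 had 6.04 ± 0.21 (SD), between 5.84 and 6.26, and the 7 on the other slides had 7.32 ± 0.43 (SD), between 6.74 and 7.82. These ranges did not overlap. Slide 1 arrays had more probes well above background, 73.2% to 79.8%, against 38.7% to 63.1% on the other slides, and over the 11 type 1 myofibers linc-Myh and this share had an r of -0.85 (-0.84 with each array shifted to its 75th percentile in place of quantile normalization). In type 2B the 4 myofibers on slide 1 had 9.98 ± 0.70 (SD) and the 6 on the other slides 10.098 ± 0.592 (SD), and r was 0.04 (n = 10). The part of the array in the type 1 spread was not tested.

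**Figure D2:**
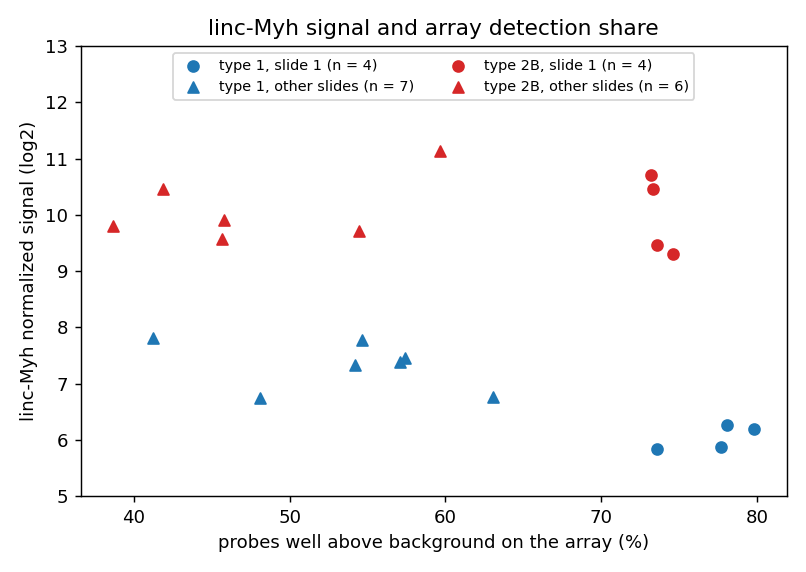
linc-Myh signal (log2, vertical axis) against the share of probes well above background on the same array (%, horizontal axis), with 1 point for each of the 21 myofibers. Circles are slide 1 and triangles the other slides. Type 1 myofibers (blue) on slide 1 lie between 5.84 and 6.26, below the other type 1 myofibers, while type 2B myofibers (red) lie above 9.3 at every share.

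Of the Six-family factors, Six2 is a homeodomain protein known best for keeping nephron progenitors undifferentiated, and it was the one with more signal in type 2B. Its probe A_51_P354224 (mm9, chromosome 17, 86083986 to 86084045) had a lowest signal of 1.76, a median of 2.80 and a highest of 3.93 in type 1, and of 1.79, 7.42 and 9.86 in type 2B. The other, A_55_P2033308 (86083634 to 86083693), had 1.77, 2.39 and 4.07 in type 1, and 1.98, 6.77 and 9.34 in type 2B. At both probes 9 of 10 type 2B myofibers lay above every type 1 myofiber, and the tenth was the same myofiber, E7.7, the only one of mouse 7. At least 9 of 10 type 2B myofibers lay above all of type 1 at 1.06% of the probes tested. Either probe exceeded background clearly, by the scanner flag, in 2 of 11 myofibers of type 1 and 9 of 10 of type 2B, so that the type 1 level is mostly signal near background and the size of the differences depends on how dim spots are treated. The differences were 4.25 (standard error 0.75) and 4.05 (standard error 0.57), 1.95 and 1.52 with normexp, and 4.83 and 4.56 without E7.7. On the array of E7.7, 45.7% of the probes were well above background and the lowest signal of such a probe was 5.22, a level that the A_55_P2033308 signal exceeded in each of the other 9 type 2B myofibers (5.77 or more) and the A_51_P354224 signal in 8 of them. Within slides the differences ranged from 3.46 to 7.41 at the first probe and from 4.18 to 6.04 at the second. Over the 10 type 2B myofibers the probes had an r of 0.70, in which E7.7 is the low point of both. How far this r rests on E7.7 was not tested.

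Six4, a family member active in the precursors and fibers of muscle, went the other way. Its probe A_55_P2041095 (chromosome 12, 74201246 to 74201305) was well above background in all 21 myofibers. It had a lowest signal of 7.89, a median of 9.15 and a highest of 13.03 in type 1, and of 6.41, 7.68 and 10.21 in type 2B. The types overlapped, with 5 of 11 type 1 myofibers above every type 2B myofiber and 5 of 10 type 2B myofibers below every type 1 myofiber. The mean over mice was 9.68 ± 1.26 for type 1 and 7.92 ± 0.75 for type 2B (SD, n = 6 for either), and the difference was -2.02 (standard error 0.60). In the mice with both types it was -3.82 in mouse 3, -1.34 in mouse 4 and -0.75 in mouse 9, and without mouse 3 the overall difference was -1.26. Within slides it was -2.32, -0.92 and -3.67. Six5, encoded next to the myotonic dystrophy gene Dmpk, had much less spread at its probe A_51_P219385 (chromosome 7, 19683437 to 19683496). Its signal was 5.16 to 6.2 in type 1 and 3.98 to 6.05 in type 2B, with medians of 5.45 in both, and its difference was -0.26 (standard error 0.24). Within slides it was 0.08, -1.05 and -0.20.

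Satellite cell markers were set beside Six4, of which 1 of 3 tested passed as lower in type 2B. Pax7, the defining factor of satellite cells, was well above background in 8 of 11 myofibers of type 1 and 2 of 10 of type 2B, and Ncam1 in 11 and 9. The Pax7 difference was -1.35 (standard error 0.52, limma, Benjamini-Hochberg adjusted p = 0.136) and that of Myod1 0.02 (standard error 0.41, adjusted p = 0.989). Of the 4 satellite cell markers, Myf5 was well above background in 0 myofibers, and among the 3 tested Ncam1 had a lower signal in type 2B by limma with Benjamini-Hochberg adjustment (-2.52, standard error 0.56, adjusted p = 0.0047). The summed signal of the 3 lay between 10.15 and 12.68 in type 1 and between 8.92 and 11.82 in type 2B. The part of satellite cells in the Six4 difference was not tested. In a single myofiber preparation, fewer such cells and less RNA per cell cannot be told apart.

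Of the Eya coactivators, Eya4, a gene known from inherited deafness and cardiomyopathy, separated the types. Its probe A_55_P2041529 (chromosome 10, 22824002 to 22824061) had a lowest signal of 2.77, a median of 4.84 and a highest of 6.11 in type 1, and of 6.87, 8.50 and 9.73 in type 2B. The 10 type 2B values were all higher than the 11 of type 1, as they did for linc-Myh, and E7.7, low for Six2, was the lowest type 2B myofiber here too. The mouse means were 4.51 ± 0.79 and 8.27 ± 1.03 (SD, n = 6 for either) and the difference was 3.78 (standard error 0.40). It was 2.18 with normexp, 3.09 to 4.61 within slides and 3.96 to 4.88 within the 3 mice that gave both types. On 9 type 1 arrays and all 10 of type 2B it was well above background.

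The other Eya probes did not separate the types. Eya3, the most widely expressed of the family, had a signal of 1.69 to 6.38 in type 1 and of 1.70 to 6.11 in type 2B at A_55_P1971249 (chromosome 4, 132280589 to 132280648), with medians of 5.64 and 4.17 and a difference of -1.06 (standard error 0.58). It was well above background in 9 and 6 myofibers, and over the 10 type 2B myofibers its signal had an r of 0.61 with the share of probes well above background on the array. Eya2 lay near background at A_55_P2141093 (chromosome 2, 165597072 to 165597131), where 7 type 1 and 3 type 2B myofibers were well above it. Its medians were 3.62 and 2.91 and its difference -0.77 (standard error 0.51). Eya1, known from a syndrome of the branchial arches, ears and kidneys, gave a nearly constant signal at its only probe, A_55_P2423586 (chromosome 1, 14159982 to 14160041). It was 15.99 to 16.29 in type 1 and 15.86 to 16.16 in type 2B, and the difference was -0.11 (standard error 0.13) and turned to 0.14 with the 75th percentile shift. In this 60-base probe 34 bases in a row are a GT dinucleotide repeat. Of the 75 other probes with a run of at least 20 bases of this repeat or of its complement, 62 (82.7%) were well above background in all 21 myofibers, against 29% of all probes. Of the 12 with a run at least as long as that of the Eya1 probe, 8 (66.7%) were. How much of the signal comes from Eya1 was not tested.

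In the rest of the network, Dach2 had a lower signal in type 2B. Of the 5 other Six-Dach genes tested, 0 passed limma's test with Bonferroni adjustment over all 46922 probes, 1 had an unadjusted p under 0.05, and 1 passed with Benjamini-Hochberg adjustment by limma and by the plain test that stood in for that of the study's methods. This was Dach2, a corepressor of the network, with a signal of 1.92 to 8.69 in type 1 and of 1.72 to 3.1 in type 2B (difference -2.92, standard error 0.58, Benjamini-Hochberg adjusted p = 0.0017). On 7 type 1 and 2 type 2B arrays it was well above background. The median difference of the 5 genes was -0.29, against 0.03 over all genes tested at their brightest probe. Of 30854 genes, 0.687% were called higher and 0.875% lower in type 2B with Bonferroni adjustment, and 3.61% and 4.22% with Benjamini-Hochberg adjustment.

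The genes around linc-Myh were next read by position, which the choice of members did not use. The types were assigned from the myosin heavy chain protein, so the directions of the myosin genes here are not independent of that assignment. Within 500 kb of the linc-Myh probe 20 other probes of 13 genes lay on mm9, of which 16 probes of 11 genes were tested. Read at their brightest probe, 1 of the 11 genes passed Bonferroni as higher and 1 as lower in type 2B, and 2 in each direction passed Benjamini-Hochberg adjustment. The nearest was Myh3, the embryonic myosin, whose probes lay 10.2 and 10.9 kb away. At A_55_P2066440 its signal was 6.72 to 11.46 in type 1 and 1.69 to 3.94 in type 2B, where it was well above background in 0 of 10 myofibers, and the type 1 level was higher by at least 25.8-fold at this probe (Bonferroni adjusted p = 1.9e-08, limma). The other Myh3 probe gave -5.53 (standard error 0.54). At 148 kb on the other side, Myh4, the myosin of type 2B fibers, had a signal of 1.79 to 8.27 in type 1 and of 14.07 to 15.48 in type 2B, which differ by 11.53 (standard error 0.59, limma, Bonferroni adjusted p = 4.9e-11). The neighbors of linc-Myh thus differed in both directions, Myh3 lower and Myh4 higher in type 2B, with no overlap of the types at either gene. Between them Myh2, the myosin of type 2A, was lower by limma with Benjamini-Hochberg adjustment (-4.81, adjusted p = 0.017) and Myh1, that of type 2X, was higher (5.21, adjusted p = 0.0028). The 4 probes of Myh8, the perinatal myosin, disagreed, also in level. A_51_P143296 and A_55_P2120161 had medians of 14.89 and 14.27 in type 1 and of 15.64 and 15.57 in type 2B. At A_55_P2120169 the medians were 2.95 and 2.70. Whether the bright probes read Myh8 alone was not tested. At A_51_P143296 and A_55_P2120161 the difference was 0.54 (standard error 0.20) and 1.37 (standard error 0.27), of which the latter passed Benjamini-Hochberg adjustment (adjusted p = 0.0012). At A_55_P2120169 it was 0.17 (standard error 0.37), and the fourth probe was not tested.

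**Figure D3:**
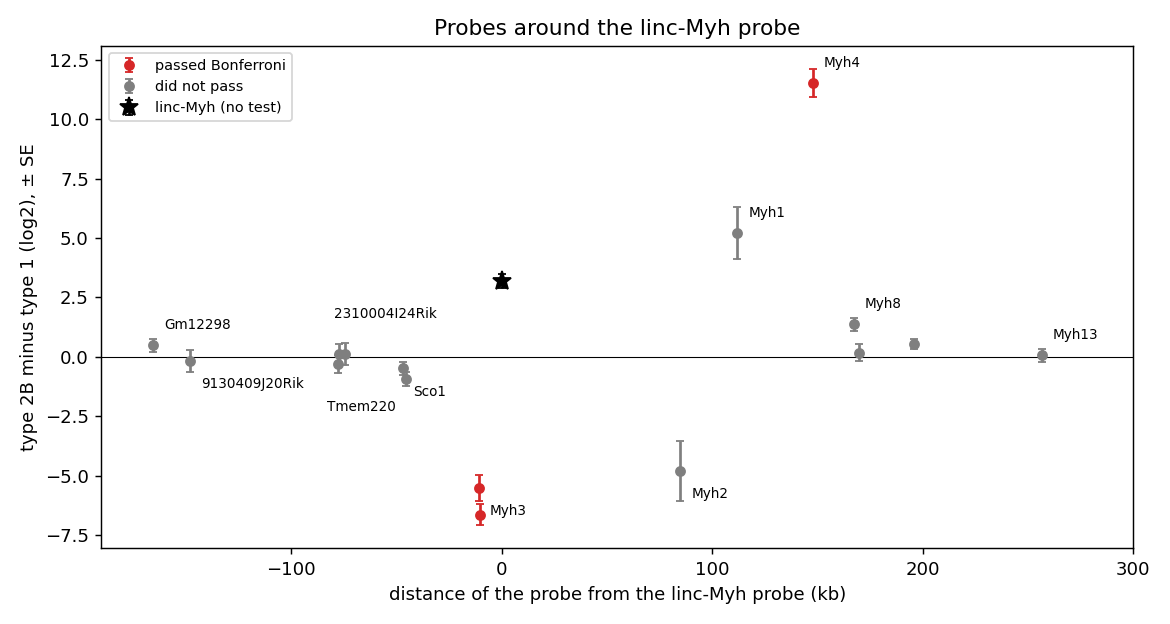
Difference between the types (type 2B minus type 1, log2, vertical axis, bars are standard errors) of the tested probes within 500 kb of the linc-Myh probe, against the distance from it (kb, horizontal axis). Red points passed Bonferroni adjustment over all probes tested and gray points did not. The star is linc-Myh, which was not tested. Myh3 lies below 0 and Myh4 above 0 on either side of linc-Myh.

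Fast- and slow-muscle genes, on which linc-Myh and Six-family proteins are known to act, differed between the types. Of 24 fast-muscle genes, 13 passed Bonferroni adjustment as higher and 0 as lower in type 2B, with a median difference of 1.80 over the 24. The largest were those of Mybpc2 (fast myosin-binding protein C), Myh4, Pvalb (the calcium buffer parvalbumin) and Actn3 (the alpha-actinin of fast Z-discs), at 11.81, 11.53, 10.83 and 9.58 (standard errors 0.30, 0.59, 0.27 and 0.34). In type 1, Mybpc2 and Myh4 were well above background in 5 of 11 myofibers. The other 9 that passed had differences between 1.24 and 6.73. Of 16 slow-muscle genes, 15 passed as lower and 0 as higher, with a median of -7.92. The largest differences were those of Myl3 and Myl2 (slow and ventricular myosin light chains) and Atp2a2 (the slow calcium pump of the sarcoplasmic reticulum), at -10.92, -9.99 and -10.05 (standard errors 0.39, 0.23 and 0.31). Myoz2 (calsarcin-1 of the Z-disc) was well above background in 0 type 2B myofibers and its type 1 level was higher by at least 386-fold. Many of these genes define the fiber types, so that their direction is not independent of the assignment of the myofibers.

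Of 20 other regulators of fiber type, 2 passed as higher and 2 as lower in type 2B, and 16 did not pass. The median of the 20 was -0.11. Sox6, a repressor of slow-muscle genes, had 2.96 to 8.34 in type 1 and 8.86 to 11.57 in type 2B (difference 4.58, standard error 0.47, Bonferroni adjusted p = 7.0e-05, limma). Maf, a factor that drives Myh4, had 3.26 to 6.96 and 8.42 to 10.88 (4.51, standard error 0.43, adjusted p = 1.5e-05). Esrrg, a nuclear receptor of oxidative metabolism, was lower in type 2B (-6.83, standard error 0.75, adjusted p = 2.1e-04), as was Prox1, a factor of slow fibers (-4.93, standard error 0.73, adjusted p = 0.037). A fit with a fixed block ended both of these lower calls, leaving 1 higher and 0 lower regulators when the block was the mouse and 2 and 0 when it was the replicate number. Like linc-Myh and Eya4, Sox6 and Maf did not overlap between the types, whereas 1 type 2B myofiber had a Prox1 signal of 10.05 and another an Esrrg signal of 8.89, within the type 1 range. Mouse 3 gave 7 of the 21 myofibers, and without it 5 fast-muscle genes, 11 slow-muscle genes and 1 regulator passed. Within slide 1, with 4 myofibers of each type, the numbers were 3, 9 and 0 (limma, Bonferroni; 22, 16 and 8 at an unadjusted p under 0.05), with 1 locus neighbor. Within each of slides 2 and 3, with 2 of each type, they were 0 throughout, with 15 to 18 fast- or slow-muscle genes of a slide, 4 to 7 regulators and 3 to 5 locus neighbors at an unadjusted p under 0.05.

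**Figure D4:**
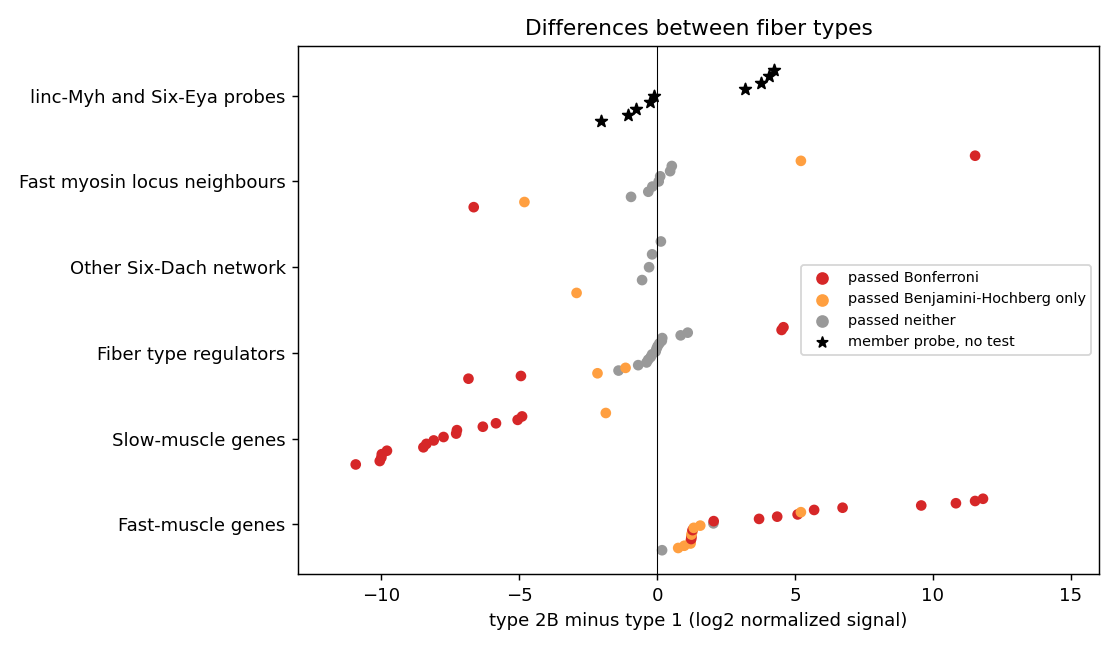
Differences between the types (type 2B minus type 1, log2, horizontal axis) of the 9 member probes and of the genes of 5 lists at their brightest probe, 1 point each. Red points passed Bonferroni adjustment, orange points passed Benjamini-Hochberg adjustment only, gray points passed neither, and stars were not tested. The member probes fall on both sides of 0, between -2.02 and 4.25.

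Within type 2B, linc-Myh varied from 9.31 to 11.13, and its variation was set against that of each Six-Eya probe over the 10 myofibers. These share 6 mice and 4 slides, and the values are a description without a p. Of the 8 probes 4 had a positive and 4 a negative Pearson's r. For the 17718 other probes well above background in all type 2B myofibers, r with linc-Myh had a median of -0.04, with 90% of the probes between -0.55 and 0.53. Of the Six-Eya probes 7 lay within this range, though only those of Six4, Eya1 and Eya4 met the same condition on background. Eya4, which separated the types like linc-Myh, had an r of -0.24 and a Spearman's rho of -0.26, with r between -0.55 and 0.05 when each myofiber was left out in turn. The probes of Six2 differed, with an r of 0.12 at A_51_P354224 (rho 0.05, -0.12 to 0.35) and of 0.47 at A_55_P2033308 (rho 0.64, 0.42 to 0.55). Six4 had 0.06 (rho 0.13) and Eya3 0.16 (rho -0.01).

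Of the other probes with a negative r, Six5 had -0.54 (rho -0.36), which was -0.09 without E11.9, the myofiber with the most linc-Myh and the least Six5 signal. Eya2, not well above background in 7 of the 10 myofibers, had -0.48 (rho -0.55). Eya1 had -0.68 (rho -0.71), outside the range above, over a spread of its own of 0.10 (SD), and its r was -0.25 with the 75th percentile shift. Leaving out E11.9 and E10.4, the myofibers farthest from the median of linc-Myh, gave 0.13 and 0.53 for the Six2 probes, -0.08 for Six4, -0.24 for Six5, -0.55 for Eya1, -0.54 for Eya2, 0.25 for Eya3 and 0.06 for Eya4. With the means of slide 1 and of the other slides removed, r was 0.13 and 0.51 for the Six2 probes and -0.22 for Eya4. In type 1, with 11 myofibers, r was -0.28 and 0.11 for the Six2 probes and 0.49 for Eya4. Over the 16 tested probes of the locus, r in type 2B ranged from -0.69 at Myh8 (A_51_P143296) to 0.55 at Tmem220, and was -0.56 for Myh4, 0.47 for Myh1 and -0.66 for Myh2, which was well above background in 2 of the 10 myofibers.

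**Figure D5:**
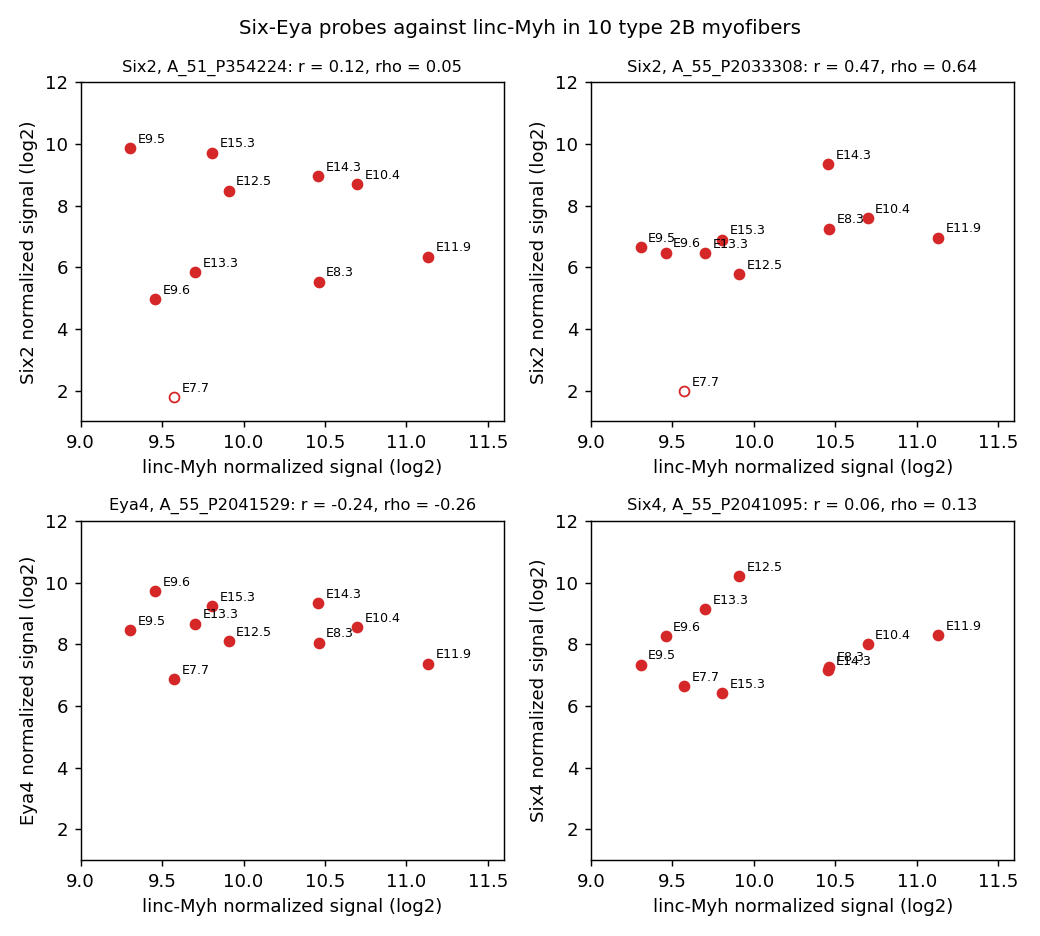
Signal (log2, vertical axis) of both Six2 probes, Eya4 and Six4 against that of linc-Myh (log2, horizontal axis) in the 10 type 2B myofibers, each point 1 myofiber with its name. Open points are not well above background. Pearson's r is 0.12, 0.47, -0.24 and 0.06, and E7.7 has the lowest signal at both Six2 probes.

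By Pearson's r over all 21 myofibers, among the 17199 probes well above background in every type 2B myofiber that also had a gene name and a value on all 21 arrays, the genes most like linc-Myh were Dkk3, a secreted protein of the Dickkopf family, with an r of 0.96, Slc16a3, the lactate transporter MCT4, and Phkg1, a subunit of phosphorylase kinase, with 0.95 each, Maf with 0.95 and Sh2d7 with 0.93. These values include the difference between the types. Dkk3 had 2.47 ± 0.57 in type 1 and 8.95 ± 1.19 in type 2B (SD over 11 and 10 myofibers), and Slc16a3 had 6.83 ± 0.91 and 12.38 ± 0.62. Over the 10 type 2B myofibers alone their r was 0.71 for Dkk3 and 0.31 to 0.45 for the other 4. The 5 most like linc-Myh within type 2B were another set, Scaper (0.93), Cul9 (0.91), an unnamed transcript of chromosome X (0.89), Arrb1 (0.88) and Lonp1 (0.88). Of these Arrb1, which encodes beta-arrestin 1, also had an r of 0.86 over all 21, and the other 4 had values between -0.31 and 0.30. These 5 are the highest of 17199 values over 10 myofibers, and how many would reach such an r by chance was not tested. Of the Six-Eya probes, those of Six4, Eya1 and Eya4 passed the filter of this search. Over all 21 myofibers their r with linc-Myh was -0.50, -0.57 and 0.87. For the probes that did not pass, it was 0.71 and 0.84 (Six2), -0.26 (Six5), -0.40 (Eya2) and -0.37 (Eya3). These values, too, include the difference between the types.

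As a check of the labels, the 4 type 1 markers (Myh7, Tnni1, Tnnt1, Tnnc1) and the 4 type 2B markers (Myh4, Pvalb, Tnni2, Actn3) passed Bonferroni adjustment in their own direction. Of the markers of types 2A and 2X, Myh2 ran from 1.71 to 14.86 in type 1 and Myh1 from 1.71 to 11.70 in type 2B. Tnni2 reached 16.08 in type 1, within its type 2B range of 15.73 to 16.47, and Tnni1 fell to 8.28 there. The check therefore does not show that every myofiber held a single type. The type 1 myofiber S6.4 stood apart, with a Myh7 signal of 8.88 against a type 1 median of 15.49. Without it the linc-Myh difference was 3.09, those of the Six2 probes 4.19 and 4.01, Six4 -1.98 and Eya4 3.73, and the numbers of genes called in the 5 lists were as with it. The share of probes well above background ran from 38.7% to 79.8% between arrays. How precise a difference can be is limited by the number of mice and arrays. Of the markers of other cells, 4 of 5 endothelial, 4 of 5 blood, 4 of 5 connective tissue and 4 of 4 Schwann cell genes were tested and 0 passed Bonferroni adjustment by limma, with 1, 0, 1 and 0 lower and 0 higher in type 2B by Benjamini-Hochberg adjustment. Kdr, Hba-a1, Ptprc, Col1a2 and Mbp were well above background in every myofiber, and Pdgfra was in 0. The summed signal of these lists overlapped between the types, lying between 10.25 and 11.5 in type 1 and 10.19 and 11.69 in type 2B for endothelial, and between 7.74 and 11.87 and 7.33 and 9.08 for connective tissue genes. The part of these cells in the member differences was not tested.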

How the data were processed

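Per the labels, RNA of 21 single myofibers was amplified by 18 cycles of whole transcriptome amplification, labeled and hybridized to 1-color Agilent arrays designed on mm9, and the authors deposited the scanner output of Agilent Feature Extraction 10.7.3.1, from which the background-subtracted signal intensity was used. Outlier spots and control spots were left out, spots of a probe were averaged, and log2 intensities were quantile normalized between arrays. The authors also deposited a value table, which held 1 of the 9 member probes and in which the columns of E13.3 and E12.5 follow each other's scanner output. It was used as an alternative only.

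Probes called positive and significant on 50% or more of the arrays of either type (46922 of 55681) were fitted with limma 3.58.1 in R 4.3.3, with the mouse as a random block. The threshold was 0.05 after Bonferroni adjustment over all probes tested, with Benjamini-Hochberg adjustment beside it. Genes of a list were read at their brightest probe, and those of each list with the largest differences past the threshold are named. Where a gene was not well above background on any array of a type, a lower bound of its fold change was taken from the lowest signal well above background. Leave-one-out fits reused the correlation of the full fit. A Welch test on the same values, with either adjustment, stood in for the t-test of the study's methods, which took p-values by permutation and adjusted them by Bonferroni. Figures were drawn with Python 3.11.15 and matplotlib 3.10.9. Whether the p-values of the fit hold where several myofibers came from 1 mouse was not tested. Promoter windows were read from RefSeq tables (GRCm38.p6), which held no window of Eya1 and Eya2, and probe sequences and positions from the array files. The members and gene lists were chosen with earlier results of these data known. Several myofibers came from 1 mouse and are not separate animals. The correlation between myofibers of a mouse, estimated over all probes tested, was -0.02, so that the random block changed the fit little. The p-values thus measure mainly the spread between myofibers and not that between mice. Quantile normalization on the linear scale, which the value table follows, was added as an alternative after seeing the data. Values of 1 gene of the network list are not reported here.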

Additional observations from a re-analysis of the deposited data

Results flagged for a closer look

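In groups of 4 to 10 myofibers or mouse means, 13 of 66 groups at 22 probes held a value set apart from the rest by its gap relative to the range. The groups were the type 2B myofibers and the mouse means of either type. The 11 type 1 myofibers were not examined as a group, so none of them could be singled out here. Chance alone sets apart about 1 in 20 groups, and a myofiber that was the only one of its mouse counts both by itself and as a mouse mean. At Six2 (A_55_P2033308) E7.7 had 1.98 against 5.77 to 9.34 in the other type 2B myofibers, and as the mean of mouse 7 it lay apart from 6.21 to 7.60. The mean of mouse 7, which is E7.7 alone, was also apart at Eya3, with 1.80 against 4.13 to 4.93. As a myofiber E7.7 was not apart at Eya3, where E15.3 of mouse 3 had 1.70, and neither was well above background. E7.7 was apart at Myh3 (A_55_P2066440), with 3.94 against 1.69 to 2.89, at a probe well above background in 0 of the 10 type 2B myofibers. Mouse 9 had the lowest type 2B mean of Mybpc2 (14.61 against 15.29 to 15.52, n = 5) and Myh4 (14.07 against 15.10 to 15.31). Its type 2B myofiber, E11.9, had a Prox1 signal of 10.05, apart from 1.72 to 5.76 in the other myofibers and from 3.30 to 5.20 as a mouse mean, and it was also the type 2B myofiber with the most linc-Myh. E9.6, the only myofiber of mouse 6, was apart at Pvalb (16.95 against 17.32, which is the highest value that quantile normalization gives and was shared by the 9 other myofibers, so that any myofiber with another probe on top is set apart) and at Myl3 (1.73 against 5.13 to 6.23, and against 5.32 to 6.23 as a mouse mean). E12.5 had an Esrrg signal of 8.89 against 1.68 to 5.04.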

How the results depend on the processing

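The differences of the 8 Six-Eya probes took 344 values under the alternatives. Of these 332 moved by less than the pooled SD of the mouse means and 12 moved by more. Of 44 values of the linc-Myh difference, 42 moved by less and 2 by more. For each difference most alternatives left out 1 of 21 myofibers or 1 of 9 mice, and fewer changed the processing or the model. The SD of the mouse means is wide for some probes, such as Six2 A_51_P354224 with 0.79 in type 1 and 2.74 in type 2B. The sign changed for Eya1 (0.14 with the 75th percentile shift and 0.003 within slide 2, from -0.11), Six5 (0.08 within slide 1, from -0.26) and Eya2 (0.21 within slide 3, from -0.77). The linc-Myh difference of 3.19 was 2.52 with normexp and 3.94 within slide 1, and ranged from 3.07 to 3.28 without each myofiber and from 2.97 to 3.30 without each mouse. Of the 8 Six-Eya probes 3 were higher in type 2B, also without each myofiber or mouse (3 to 3), and their median r with linc-Myh was -0.09 (-0.26 to 0.01 without each myofiber). Of 144 alternative values of single correlations 7 moved. The 13 fast-muscle genes called became 6 with the mouse as a fixed block, 8 with the slide as a block, 3, 0 and 0 within slides 1, 2 and 3, and 22 with Benjamini-Hochberg adjustment, by limma or by the Welch test. They were 10 to 13 without each myofiber and 5 to 13 without each mouse, 5 being the number without mouse 3. The 15 slow-muscle genes became 10 with the mouse as a fixed block and 9, 0 and 0 within slides (15 to 15 without each myofiber, 11 to 15 without each mouse). The 4 regulators became 1 with the mouse as a fixed block and 0 within each slide (3 to 4 without each myofiber, 1 to 4 without each mouse). The 0 other network genes became 1 with Benjamini-Hochberg adjustment by either test (0 to 0 on leaving out). The 2 locus neighbors became 1 with spots that were not positive and significant set to missing, 1, 0 and 0 within slides, and 4 with Benjamini-Hochberg adjustment (2 to 2 on leaving out). Few arrays remain within a slide, which lowers the number called there. The cause of the other changes was not tested.

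The types share replicate numbers in the labels. By the labels most same-numbered myofibers came from different mice, such as mice 4 and 3 for number 1. Their deviations were correlated by -0.23 to 0.27, over 0.1 in 3 of 10 pairs, and 3 of 10 correlated best with their own number. With so few pairs these values cannot settle whether they share more than a number. With the replicate block the linc-Myh difference was 3.18, 3 Six-Eya probes were higher in type 2B, and 6 fast-muscle genes, 15 slow-muscle genes, 2 regulators, 0 network genes and 2 locus neighbors were called. Signal over background limits Six2, Eya2 and Eya3, which lay near background in many myofibers.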
